A study of Mus musculus with 24 samples.

Results

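Inguinal fat of mice that lack Bmal1 in adipocytes was compared between CT12 and CT0, the end and the beginning of the subjective day. The comparison rests on 6 of the 24 arrays of the series, chosen by their titles: 3 of Ad-Bmal1-/- mice at CT12 and 3 of Ad-Bmal1-/- mice at CT0. These mice carried one copy of aP2-Cre and floxed Bmal1 alleles (aP2-Cre+/- Bmal1fx/fx) on a C57BL/6J background reached through at least 6 generations of crossing. Control mice were Bmal1fx/fx without Cre, so that an effect of the recombinase cannot be told apart from an effect of the deletion wherever the genotypes are compared. Mice of both genotypes and all times ate chow, entered constant darkness 36 h before collection began and were fasted for 24 h before death. The aP2 promoter directs Cre to adipocytes, and the other cells of the pad (vessels, immune cells, fibroblasts, nerve) keep their own clock unless they also express the transgene. Each array was hybridised with RNA of 1 biological replicate, and age is not given in the sources used here.

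In the mammalian clock BMAL1 and CLOCK bind E-box sequences and switch on the period and cryptochrome genes, whose proteins feed back to repress that activity. The same pair drives the PAR bZIP factors DBP, TEF and HLF, which act on D-boxes, and the REV-ERB repressors, which compete with ROR activators on ROR elements, including those of the Bmal1 gene itself. In fat the clock is linked to lipid storage and release, and CT12 is the time at which a nocturnal animal begins its active phase.

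The deposited values are log2 expression per probe set, so that a difference of 1 is a doubling of the signal. Over 19938 genes the median lay between 6.46 and 6.56 on all 24 arrays. The adipocyte markers Fabp4 and Adipoq averaged 12.52 and 12.00 at CT12 and 12.48 and 11.94 at CT0, and all 11 measured adipocyte markers lay above the median gene level. So did all 8 measured mesothelium markers, with means over all arrays from 7.08 (Lrrn4) to 9.67 (Gpm6a). Whether the values fit the inguinal depot was not tested. Replicate 2 at CT0 stood apart from the other knockout arrays of its time. Correlations among the 3 CT0 arrays lay between 0.976 and 0.995, against 0.993 for the CT12 arrays. That array also carried epithelial transcripts. The mean of the uterine epithelium markers was 7.59 on it, against 5.79 to 5.90 on the other 5 arrays, and that of the mammary and skin epithelium markers was 6.51, against 5.95 to 6.004. The second mean does not hold for all members of its list. The CT12 minus CT0 differences of Epcam, Krt18 and Krt8 were -0.79, -0.69 and -0.45, and 0.04, -0.05 and -0.06 without that array. Those of Csn2, Wap and Krt14 were -0.08, 0.10 and 0.02, and -0.08, 0.07 and 0.01 without it. Pgr, the progesterone receptor gene, read 9.23 on it, where the other CT0 arrays read 5.79 and 5.86, and Ltf, the lactoferrin gene, read 7.29 against 4.79 and 4.56. Replicate 1 at CT12 lay toward the control arrays in earlier results of these data. Fmo1, a flavin monooxygenase gene, read 10.90 on it, 10.23 and 10.17 on the other knockout arrays at CT12, and 10.50 to 10.86 on the controls of that time. The count of calls is given without each of these arrays, and the values of genes and lists without them only for part of the results.

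Between CT12 and CT0, 19 of 19938 genes passed in knockout fat by limma (Benjamini-Hochberg adjusted p under 0.05), which is 0.0953% of the genes tested. Of these, 15 rose (0.0752%) and 4 fell (0.0201%), with log2 differences of 0.43 to 1.28 in size. The risers were, by size, Ifi205, Ifi207, Per3, Cys1, Dbp, Hlf, Ccl11, Rexo5, Per2, Pex3, Art3, Cmc1 and Asnsd1, and those that fell were Tpm1, Afap1l2, Atp11a and Wsb1. A further 2 genes that rose are a predicted gene and a clone-based one and are not placed in this order. Without adjustment, 1948 genes (9.77%) had a p under 0.05, of which 1080 (5.42%) were higher and 868 (4.35%) lower at CT12. A difference above 0 was found for 49% of all genes. The 3 arrays of one time lay entirely on one side of the other 3 for 2663 genes (13.4%), and for all 19 genes that passed.

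The number of calls depends on single arrays. Without knockout replicate 1 at CT0 it was 0 by limma, although 2296 genes had an unadjusted p under 0.05. Without replicate 2 at CT0 it was 6. Of the 19 genes only Per3, Cys1 and Ccl11 kept their call there, and Sash1, Slc20a1 and a small RNA gene were new. Without replicate 3 at CT0 the number of calls was 63. Without replicate 1 at CT12 it was 2 (Cys1 and Ccl11), so that no other gene kept its call. Without replicate 2 at CT12 it was 4 and without replicate 3 at CT12 it was 14. Cys1 and Ccl11 passed in 14 of 16 alternative fits and Per3 in 13 of 16, while the other 14 named genes passed in 6 to 10. None of the 17 turned its direction in any of the 16 fits.

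**Figure D1:**
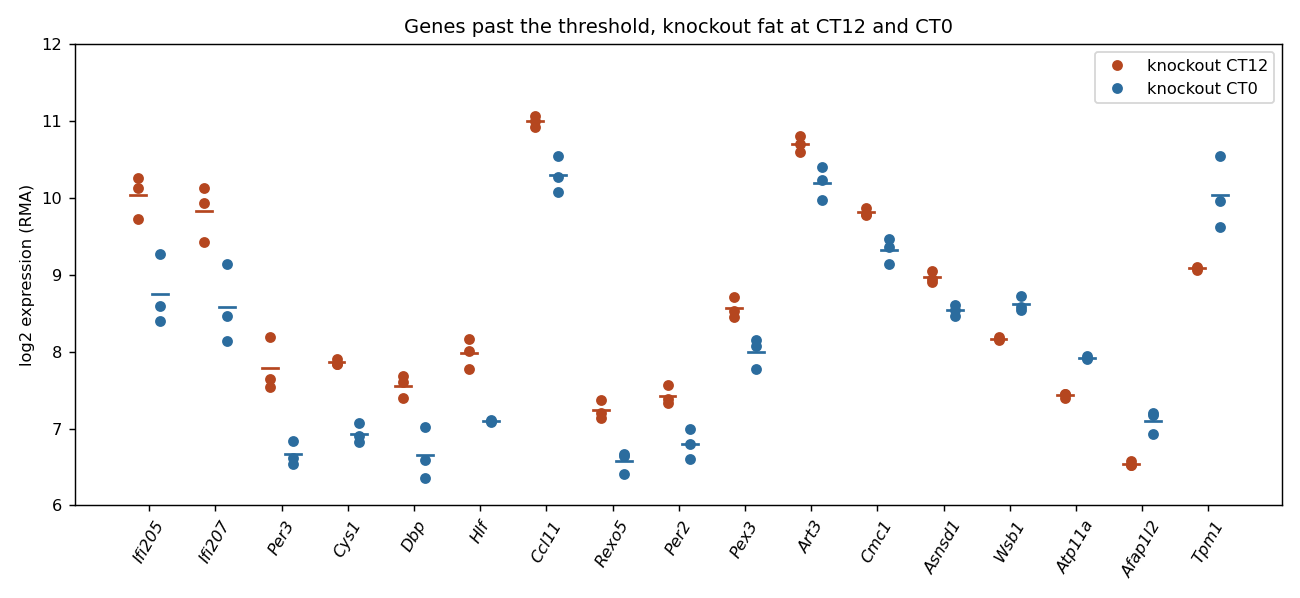
Log2 expression of the 17 named genes that passed the threshold, on each of the 3 knockout arrays at CT12 (left of each pair) and CT0 (right). Points are arrays and bars are means. Ifi205 shows the largest rise, 1.28 on the log2 scale, and Tpm1 the largest fall, and the points of the 2 times do not overlap for any of the 17 genes.

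Among the clock genes, Arntl, the symbol of Bmal1 (probe set 10556463, chromosome 7), read 6.46, 6.89 and 6.87 at CT12, against 7.51, 7.30 and 7.49 at CT0. All CT12 arrays lay below all CT0 arrays, and the difference of -0.69 ± 0.16 (SE) did not pass (adjusted p = 0.1). Whether the probe set lies in the deleted part is not known here, so that these values do not check the deletion, and transcripts of cells without the recombinase are counted too. In control fat Arntl averaged 6.34 at CT12 and 7.97 at CT0, a difference of -1.63 ± 0.16. The difference between the genotypes in this change was 0.94 ± 0.22 (unadjusted p = 0.000378, adjusted p = 1 by limma). Without replicate 1 at CT12 and replicate 3 at CT18 of both genotypes, 4 arrays that lay toward the other genotype in earlier results, it was 1.285 ± 0.16 and Arntl was the 1 gene to pass (adjusted p = 0.00764). Those arrays were singled out after the data were seen, so that this p is not independent evidence.

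The period gene Per3 (probe set 10518781, chromosome 4), which encodes a repressor of CLOCK and BMAL1, read 8.19, 7.65 and 7.54 at CT12, against 6.62, 6.54 and 6.83 at CT0. It rose by 1.13 ± 0.16 (adjusted p = 0.00609), or 2.19-fold, and still rose without replicate 2 at CT0 (1.07, adjusted p = 0.031). Replicate 1 was its highest CT12 array, and without it the difference was 0.93 and did not pass (adjusted p = 0.0615). Per2, its relative, read 7.38, 7.56 and 7.33 at CT12, against 6.60, 6.80 and 6.99 at CT0. It rose by 0.63 ± 0.10 (adjusted p = 0.0166), and the adjusted p was 0.0633 without replicate 2 at CT0. Per1, a relative that glucocorticoids also induce, read 8.004, 7.94 and 7.75 at CT12, against 7.19, 7.38 and 7.70 at CT0. The arrays of the 2 times did not overlap, and the difference of 0.47 ± 0.14 did not pass (adjusted p = 0.214).

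Among the D-box factors Dbp and Hlf rose. Dbp read 7.68, 7.60 and 7.39 at CT12, against 6.36, 6.59 and 7.02 at CT0, a rise of 0.90 ± 0.16 (adjusted p = 0.0236). Hlf read 8.17, 8.01 and 7.77 at CT12, against 7.11, 7.09 and 7.10 at CT0, a rise of 0.88 ± 0.15 (adjusted p = 0.0166). Both were of similar size without replicate 2 at CT0 (0.87 each) but did not pass there (adjusted p = 0.107 and 0.0633). Tef, the third family member, averaged 7.22 ± 0.13 at CT12 and 6.83 ± 0.07 at CT0 (SD, n = 3 each), a difference of 0.40 ± 0.10 (SE) that did not pass (adjusted p = 0.156). Nfil3, a repressor that binds the same D-boxes, averaged 7.68 ± 0.36 at CT12 and 7.82 ± 0.15 at CT0, and its arrays overlapped.

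The REV-ERB genes were higher at CT12 without passing. Nr1d2 read 9.10, 8.77 and 8.48 at CT12, against 7.96, 8.12 and 8.12 at CT0, a difference of 0.72 ± 0.17 (adjusted p = 0.111). Nr1d1 read 8.67, 8.36 and 8.43 at CT12, against 8.14, 7.47 and 8.28 at CT0. Its difference was 0.52 ± 0.16 (adjusted p = 0.237), and 0.28 without replicate 2 at CT0. Both times lie on the flanks of its daily course: the knockout means of Nr1d1 were 7.96 at CT0, 9.26 at CT6, 8.49 at CT12 and 7.09 at CT18. For Per3 the means at the same 4 times were 6.66, 7.27, 7.79 and 7.07, so that CT12 was its highest time and CT0 its lowest.

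The other clock genes overlapped between the times. Clock (-0.15 ± 0.14) and Cry1 (-0.16 ± 0.13), a transcription factor and a repressor gene, were lower on average at CT12, and Cry2 (0.15 ± 0.11) and the activator gene Rora (0.12 ± 0.13) were higher. The repressor genes Bhlhe40 (-0.18 ± 0.12), Bhlhe41 (0.59 ± 0.35) and Ciart (0.13 ± 0.23) did not pass either. The value of Bhlhe41 rests on replicate 2 at CT0, which read 5.95 where the other 5 arrays read 7.45 to 8.18, and the difference was -0.02 without it. Those of Cry2, Rora and Bhlhe40 were also near 0 without that array (0.03, -0.002 and -0.0077). In all 4 of 17 clock genes rose, against 0.0752% of all genes, 0 of 17 fell, against 0.0201%, and 9 of 17 had arrays that did not overlap, against 13.4% of all genes. The median of the list was 0.40, against -0.003 over all genes, and 0.08 without replicate 2 at CT0. The genes were chosen for the clock with earlier results of these data known.

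**Figure D2:**
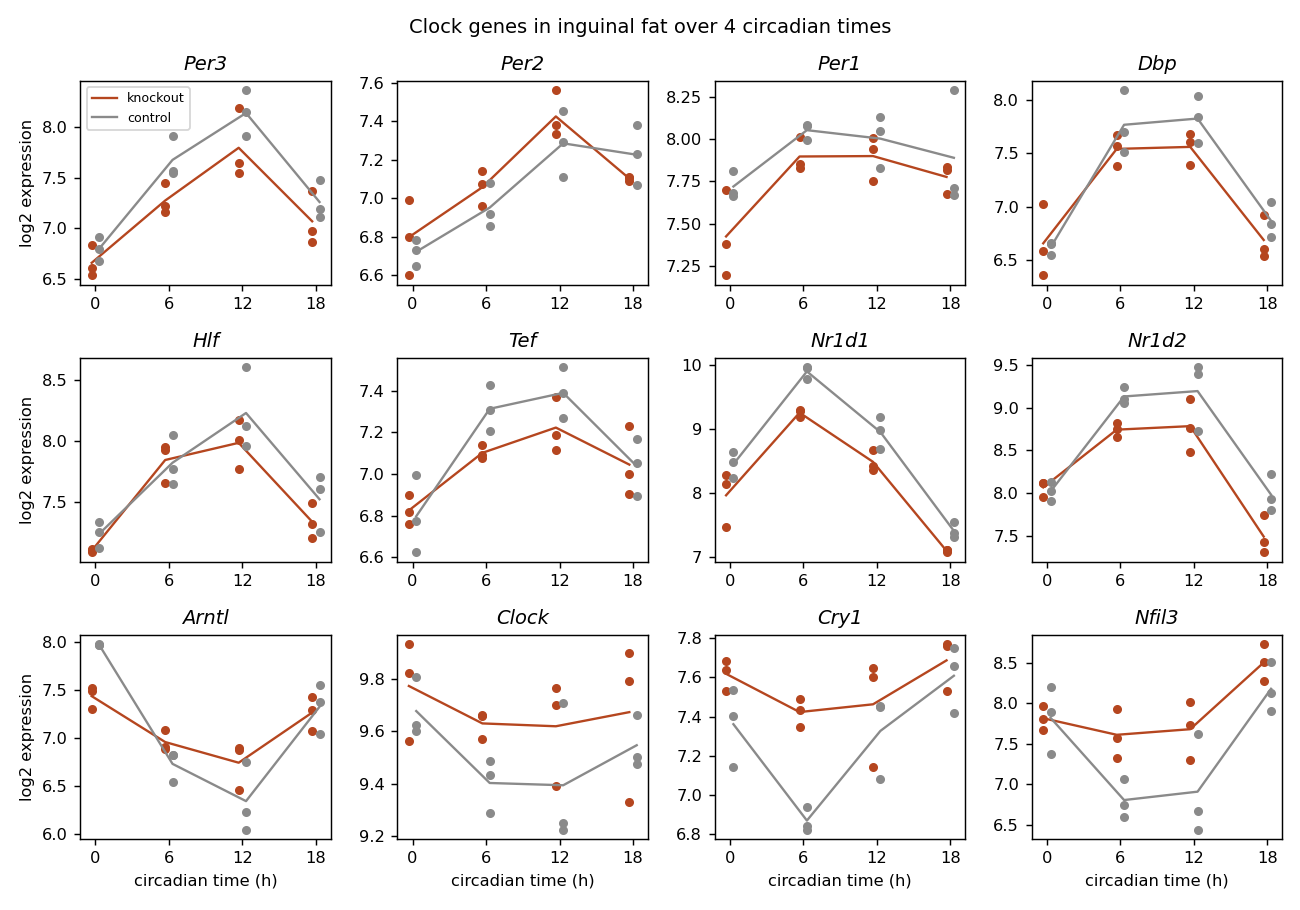
Log2 expression of 12 clock genes against circadian time (h) in knockout and control fat. Points are arrays and lines join the means of 3. Per3 in knockout fat was lowest at CT0 (6.66) and highest at CT12 (7.79), while Arntl had the opposite course, with a difference of -0.69 in knockout and -1.63 in control fat.

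The promoter search took 29 named genes that passed or belong to the clock list. Asnsd1 and the 2 risers not named here also passed but were not part of it. Of the 29, 26 have a promoter sequence (250 bases before the annotated start and 50 after it, RefSeq, GRCm38.p6). These were searched on both strands for the E-box CACGTG, the D-box TTATGTAA or TTACGTAA, a core ROR element TAGGTCA or TGGGTCA, and a core of interferon response elements, GAAA followed after any 2 bases by GAAA. Over 32851 mouse promoters these occurred in 7.15%, 1.06%, 6.45% and 3.44%. Per3 was the 1 gene of the 26 with a D-box in this window and held 2 copies. Arntl and Nfil3 held the ROR element, and Bhlhe41, Ciart, Cmc1, Cry1, Per1, Tef and Wsb1 held the E-box. A match describes the letters alone, and the factors were not measured on these promoters. The promoters of Per3, Per1 and Arntl are shown because these genes stand for the 3 elements of the clock, with the motif in capitals. In Per3 (chr4:151044616-151044915, minus strand) the 2 D-boxes begin 205 and 158 bases before the start. In Per1 (chr11:69098699-69098998, plus strand) the E-box begins 166 bases before it, and in Arntl (chr7:113207261-113207560, plus strand) the ROR element begins 30 bases after it.
Per3: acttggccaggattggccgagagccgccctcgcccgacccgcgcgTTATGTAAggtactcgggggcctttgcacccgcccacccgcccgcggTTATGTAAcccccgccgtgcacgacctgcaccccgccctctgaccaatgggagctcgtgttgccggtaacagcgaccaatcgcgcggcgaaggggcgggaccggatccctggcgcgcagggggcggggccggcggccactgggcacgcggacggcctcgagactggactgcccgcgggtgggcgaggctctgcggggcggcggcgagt
Per1: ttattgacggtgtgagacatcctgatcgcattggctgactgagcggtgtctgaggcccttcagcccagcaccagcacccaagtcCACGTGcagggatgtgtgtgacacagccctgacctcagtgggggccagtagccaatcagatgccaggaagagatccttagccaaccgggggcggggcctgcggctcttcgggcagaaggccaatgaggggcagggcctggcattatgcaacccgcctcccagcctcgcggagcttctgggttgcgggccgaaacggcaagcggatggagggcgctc
Arntl: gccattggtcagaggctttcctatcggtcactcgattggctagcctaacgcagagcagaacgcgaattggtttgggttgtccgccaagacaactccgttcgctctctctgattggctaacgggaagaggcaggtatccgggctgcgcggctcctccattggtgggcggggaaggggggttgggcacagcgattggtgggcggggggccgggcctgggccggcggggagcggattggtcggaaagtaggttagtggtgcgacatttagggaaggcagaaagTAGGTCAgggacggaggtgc

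The largest rises outside the clock were those of Ifi205 and Ifi207, interferon-inducible genes of the Ifi200 family on chromosome 1 whose proteins carry a DNA-binding HIN domain. Ifi205 (probe set 10360406) read 10.26, 10.12 and 9.72 at CT12, against 8.60, 8.40 and 9.26 at CT0, a rise of 1.28 ± 0.21 (adjusted p = 0.0166). Ifi207 (probe set 10360377) read 9.93, 10.13 and 9.43 at CT12, against 8.46, 8.13 and 9.14 at CT0, a rise of 1.25 ± 0.22 (adjusted p = 0.0166). On both genes replicate 3 was the lowest of the CT12 arrays and the highest of the CT0 arrays, and without replicate 2 at CT0 the differences were 1.104 and 1.03 and did not pass (adjusted p = 0.0758 and 0.11). Members of the family resemble each other, so that the probe sets could read each other's transcripts. Their promoters are shown because both genes moved together: 181 of 209 aligned bases (86.6%) are identical, and both hold the core of interferon response elements, which is in capitals. Ifi205 lies at chr1:174031706-174032005 and Ifi207 at chr1:173741760-173742059, both on the minus strand.
Ifi205: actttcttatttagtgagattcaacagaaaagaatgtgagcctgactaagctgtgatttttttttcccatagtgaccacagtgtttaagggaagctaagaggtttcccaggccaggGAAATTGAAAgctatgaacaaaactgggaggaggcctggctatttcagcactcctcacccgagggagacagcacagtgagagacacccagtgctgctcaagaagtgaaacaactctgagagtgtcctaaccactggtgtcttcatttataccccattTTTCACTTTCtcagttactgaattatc
Ifi207: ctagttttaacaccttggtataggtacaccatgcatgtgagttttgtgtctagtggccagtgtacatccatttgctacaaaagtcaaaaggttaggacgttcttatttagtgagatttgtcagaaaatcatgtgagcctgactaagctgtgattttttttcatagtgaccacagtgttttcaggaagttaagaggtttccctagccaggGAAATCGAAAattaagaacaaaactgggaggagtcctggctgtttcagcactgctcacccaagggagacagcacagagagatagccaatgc

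Of the wider list of interferon induced genes 0 of 11 passed, and its median was 0.12, against -0.003 over all genes. Ifit3, which encodes an antiviral protein that senses foreign RNA with its partners, read 8.61, 8.61 and 8.52 at CT12, against 7.54, 7.50 and 8.30 at CT0. Its difference of 0.80 ± 0.21 did not pass (adjusted p = 0.153). Irf7, a transcription factor of the interferon response, differed by 0.34 ± 0.12 with overlapping arrays. Ifi27l2a, an interferon-induced gene outside the list, read 11.82, 11.58 and 11.50 at CT12, against 10.96, 10.60 and 11.02 at CT0 (0.77 ± 0.16, adjusted p = 0.0749).

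Ccl11 encodes eotaxin-1, a chemokine that attracts eosinophils. It read 10.92, 11.0013 and 11.06 at CT12, against 10.27, 10.07 and 10.55 at CT0, and rose by 0.70 ± 0.10 (adjusted p = 0.00609). It still rose without replicate 2 at CT0 (0.58, adjusted p = 0.0356) and without replicate 1 at CT12 (0.74, adjusted p = 0.0319). Cys1, which encodes the cilium protein cystin, read 7.84, 7.84 and 7.91 at CT12, against 6.82, 6.90 and 7.07 at CT0. It rose by 0.93 ± 0.13 (adjusted p = 0.00609), with a narrower spread within either time than the gap between them, and by 0.91 without replicate 2 at CT0 (adjusted p = 0.026).

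The remaining risers include genes of organelles. Pex3, needed to build peroxisome membranes, averaged 8.56 ± 0.13 at CT12 and 7.998 ± 0.20 at CT0 (0.57 ± 0.10, adjusted p = 0.0275). Cmc1, which takes part in assembling cytochrome c oxidase in mitochondria, averaged 9.81 ± 0.05 at CT12 and 9.32 ± 0.17 at CT0 (0.49 ± 0.09, adjusted p = 0.0361). Rexo5, an RNA exonuclease gene, read 7.38, 7.20 and 7.14 at CT12, against 6.41, 6.64 and 6.67 at CT0 (0.66 ± 0.11, adjusted p = 0.0166). Art3, a member of the ADP-ribosyltransferase family, rose by 0.50 ± 0.09 and Asnsd1, a relative of asparagine synthetase, by 0.43 ± 0.08 (adjusted p = 0.0275 for both). For these 5 genes the arrays of the 2 times did not overlap, and without replicate 2 at CT0 none of the 5 passed, with adjusted p of 0.0516 to 0.171.

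The 4 genes that fell had tight values at CT12. Tpm1, the gene of a tropomyosin that coats actin filaments, read 9.06, 9.10 and 9.09 at CT12, against 9.96, 10.54 and 9.62 at CT0, and fell by 0.95 on the log2 scale (SE 0.18, adjusted p = 0.0275). Afap1l2, the gene of an adaptor protein, read 6.53, 6.52 and 6.57 at CT12, against 7.20, 7.18 and 6.93 at CT0 (-0.56 ± 0.09, adjusted p = 0.0166). Atp11a, a phospholipid flippase gene, read 7.45, 7.40 and 7.45 at CT12, against 7.91, 7.94 and 7.92 at CT0 (-0.49 ± 0.09, adjusted p = 0.0275). The groups were clearly apart on all of these, and for Tpm1 the spread lay in the CT0 arrays. Wsb1, a substrate receptor of a ubiquitin ligase, averaged 8.17 ± 0.02 at CT12 and 8.61 ± 0.09 at CT0 (-0.45 ± 0.08, adjusted p = 0.0166). Without replicate 2 at CT0 none of the 4 passed, with differences of -0.70 for Tpm1, -0.52 for Afap1l2, -0.48 for Atp11a and -0.39 for Wsb1.

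Next in order without passing came Sash1, a signalling adaptor gene (-0.46 ± 0.09, adjusted p = 0.0563), Cnn2 and Cnn1, calponin genes whose proteins bind actin, Col5a2, a fibrillar collagen gene, and Chd3, a chromatin remodeller gene (-0.65 ± 0.14, adjusted p = 0.0777). Replicate 2 at CT0 was the highest array for Chd3, and without it the difference was -0.39. Cnn2 read 6.50, 6.59 and 6.36 at CT12, against 7.17, 7.31 and 7.26 at CT0 (-0.76 ± 0.16, adjusted p = 0.0745). Sash1 passed without replicate 2 at CT0 (-0.55, adjusted p = 0.031).

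Contractile genes were lower at CT12 as a group, though 0 of 12 smooth muscle and pericyte markers passed. All 12 had a negative difference, 9 of 12 had CT12 arrays entirely below the CT0 arrays (against 6.42% of all genes in that direction), and the median was -0.73, against -0.003 over all genes. Cnn1, the calponin of smooth muscle, read 7.80, 7.71 and 8.13 at CT12, against 9.998, 10.62 and 9.15 at CT0, a difference of -2.04 ± 0.43 (adjusted p = 0.0745). Actg2, a smooth muscle actin gene, read 7.78, 7.54 and 7.93 at CT12, against 10.36, 10.44 and 8.88 at CT0 (-2.14 ± 0.53, adjusted p = 0.13). The CT12 arrays were close together and low, and the CT0 arrays differed among themselves by more than a doubling. Myh11, the smooth muscle myosin heavy chain gene, differed by -1.48 ± 0.39 and Des, the gene of the filament protein desmin, by -0.95 ± 0.29 (adjusted p = 0.154 and 0.237). Pericyte genes differed less, with -0.15 for both Rgs5 and Pdgfrb and -0.17 for Notch3. In bulk tissue fewer cells of a type and less RNA per cell cannot be told apart.

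Over the whole smooth muscle and pericyte list the mean level per array was 7.91, 7.94 and 8.19 at CT12, against 8.93, 9.21 and 8.60 at CT0. The highest array was replicate 2 at CT0, the one with the epithelial transcripts. Without it the median of the list was -0.71, with -1.69 for Cnn1, -1.87 for Actg2 and -1.11 for Myh11. Without replicate 1 at CT12 the median was -0.61. In control fat the median of the list was -0.17, and Cnn1 differed by -0.41 ± 0.43. Cnn1 read 8.62, 8.57 and 8.45 in control fat at CT12, against 7.85, 10.38 and 8.63 at CT0, so that 1 array set the sign. Without control replicate 2 at CT0 the control difference was 0.30 for Cnn1 and 0.26 for the median of the list. The difference between genotypes for Cnn1 was -1.63 ± 0.60 (unadjusted p = 0.013, adjusted p = 1), and -2.35 without that control array.

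Collagen genes were lower too. All 14 measured chains had a negative difference, 8 of 14 were lower at an unadjusted p under 0.05 (against 4.35% of all genes), 6 of 14 had arrays that did not overlap (against 6.42%), and 0 of 14 passed. The median was -0.45, and -0.46 without replicate 2 at CT0. It was -0.33 without replicate 1 at CT12 and -0.57 without replicate 3 at CT12. Col3a1, a fibrillar chain abundant in soft tissue, read 7.79, 7.73 and 7.92 at CT12, against 8.37, 8.36 and 8.33 at CT0 (-0.54 ± 0.13, adjusted p = 0.121). Col5a2, which helps set the width of fibrils, read 6.54, 6.56 and 6.85 at CT12, against 7.04, 7.12 and 7.15 at CT0 (-0.46 ± 0.09, adjusted p = 0.0745). Both genes were separated between the times, with replicate 3 the highest of the CT12 arrays, as it was for the whole list (7.82, against 7.41 and 7.39 on the others). Col1a1 (-0.48 ± 0.13) and Col6a3 (-0.57 ± 0.15) had adjusted p of 0.157 and 0.174. The median in control fat was -0.08. The list of fibroblast and progenitor markers, cells that make collagen, had a median of 0.03 in knockout fat, with array levels of 8.83 to 9.09 at CT12 and 8.83 to 9.05 at CT0.

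**Figure D3:**
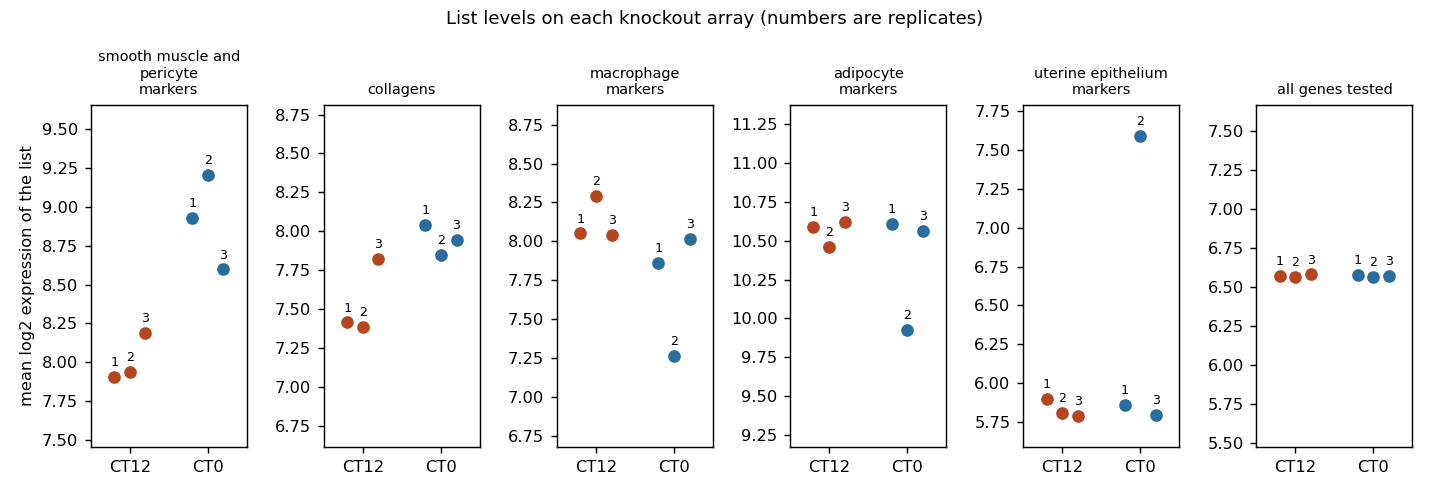
Mean log2 expression of 5 gene lists and of all genes on each knockout array at CT12 (left) and CT0 (right), with replicate numbers beside the points and the same span on each vertical axis. Smooth muscle markers lay at 7.91 to 8.19 at CT12 and 8.60 to 9.21 at CT0, and replicate 2 at CT0 was high for uterine markers (7.59) and low for adipocyte (9.93) and macrophage markers (7.26).

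Genes of triglyceride synthesis were higher at CT12, with 0 of 10 passing. Of the list 9 of 10 were positive, 4 of 10 had CT12 arrays entirely above the CT0 arrays (against 6.93% of all genes), and the median was 0.43. Lpin1, a phosphatidate phosphatase gene, read 9.76, 9.36 and 9.37 at CT12, against 8.90, 7.98 and 8.86 at CT0 (0.91 ± 0.25, adjusted p = 0.183). Gpam, the mitochondrial acyltransferase of the first step, read 9.10, 8.23 and 8.64 at CT12, against 7.91, 7.62 and 8.15 at CT0 (0.76 ± 0.19, adjusted p = 0.137). Replicate 2 at CT0 was the lowest array for both, and without it the median was 0.18, with 0.62 for Lpin1 and 0.63 for Gpam. Dgat1, which makes triglyceride from diglyceride, differed by 0.48 ± 0.17, and by 0.30 without that array. In control fat Lpin1 differed by 0.62 ± 0.25 and Gpam by 0.63 ± 0.19.

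De novo lipogenesis gave 0 of 12 genes that passed and a median of 0.08, against -0.45 in control fat. Single arrays set both values: without 1 knockout array the median lay between -0.02 (without replicate 3 at CT12) and 0.22 (without replicate 2 at CT12), and without control replicate 2 at CT0 the control median was -0.03. Thrsp, a regulator of lipogenesis, read 10.76, 10.03 and 10.61 at CT12, against 9.40, 9.87 and 9.66 at CT0 (0.83 ± 0.28, adjusted p = 0.32). In control fat its difference was -0.38 ± 0.28, and the difference between genotypes was 1.20 ± 0.40 (unadjusted p = 0.00666, adjusted p = 1). Without control replicate 2 at CT0 the control difference was -0.03 and that between genotypes 0.85. Mlxipl, the gene of the carbohydrate-responsive factor ChREBP, differed by 0.46 ± 0.14 and Acacb, an acetyl-CoA carboxylase gene, by 0.57 ± 0.24, neither of which passed. Without replicate 1 at CT12 Acacb differed by 0.32.

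Adipogenic and nuclear receptor genes gave 0 of 15 passing, with a median of 0.12 and 4 of 15 higher at an unadjusted p under 0.05, against 5.42% of all genes. Without replicate 2 at CT0 the median of the list was 0.03, and without replicate 3 at CT12 it was 0.02. Pparg, the master regulator of adipocytes, read 10.54, 10.39 and 10.45 at CT12, against 9.98, 9.52 and 10.24 at CT0 (0.55 ± 0.14, adjusted p = 0.132). Klf15, a factor of amino acid and lipid metabolism that glucocorticoids induce, read 7.43, 7.18 and 7.16 at CT12, against 6.54, 6.83 and 6.78 at CT0 (0.54 ± 0.14, adjusted p = 0.139). Both were separated between the times, and the differences in control fat were of the same size, 0.54 ± 0.14 for each. Without replicate 2 at CT0 Pparg differed by 0.35 and Klf15 by 0.59.

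Glucocorticoid responsive genes gave 0 of 14 passing, 7 of 14 higher at an unadjusted p under 0.05 (against 5.42% of all genes) and a median of 0.36. Fkbp5, a chaperone gene that the glucocorticoid receptor induces, read 9.05, 8.83 and 8.12 at CT12, against 8.002, 7.17 and 7.76 at CT0 (1.02 ± 0.31, adjusted p = 0.251). Zbtb16, a zinc finger gene with the same inducer, read 9.86, 9.75 and 9.68 at CT12, against 9.27, 8.10 and 9.50 at CT0 (0.81 ± 0.21, adjusted p = 0.156). The value of Zbtb16 leans on replicate 2 at CT0: without it the difference was 0.38, and the median of the list was 0.22. Klf9 differed by 0.34 ± 0.12. The median in control fat was 0.24.

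Xenobiotic and retinol metabolism gave 0 of 16 passing, 7 of 16 higher at an unadjusted p under 0.05 (against 5.42% of all genes) and a median of 0.28, and 0.26 without replicate 2 at CT0. Fmo1, which oxidises nitrogen and sulfur compounds, read 10.90, 10.23 and 10.17 at CT12, against 9.60, 9.21 and 9.70 at CT0 (0.93 ± 0.20, adjusted p = 0.0749). The conjugating enzyme genes Gstt1 (0.42 ± 0.12), Sult1a1 (0.47 ± 0.14) and Gsta3 (0.67 ± 0.26) did not pass. Replicate 1 was the highest CT12 array on all 4 genes, so that all 4 differences, that of Fmo1 included, were smaller without it. The median of the list was then 0.16, and Gsta3 and Sult1a1 differed by 0.34 and 0.28. In control fat the median was 0.05, and Fmo1 differed by 0.15 ± 0.20.

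Nampt, the rate-limiting enzyme of NAD salvage and a target of the clock, read 10.29, 9.56 and 9.20 at CT12, against 8.85, 8.68 and 8.997 at CT0 (0.84 ± 0.21, adjusted p = 0.135). The arrays were separated, with replicate 1 at CT12 the highest, and the difference was 0.54 without it. Wee1, a cell cycle kinase gene under clock control in liver, differed by 0.74 ± 0.20 and Tspan4, a tetraspanin gene, by 0.38 ± 0.10. Of the list of other clock-linked genes 0 of 14 passed, 8 of 14 were positive (against 49% of all genes) and 6 were negative. The median of the list was 0.02, and 0.10 without replicate 2 at CT0.

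Macrophage markers were higher on average at CT12, with 13 of 14 positive, 0 of 14 passing and a median of 0.47. Clec10a, a lectin of resident macrophages, read 6.51, 6.57 and 6.88 at CT12, against 6.03, 5.40 and 6.44 at CT0 (0.70 ± 0.22, adjusted p = 0.254). C1qb, a complement gene, differed by 0.52 ± 0.18 and Cd163, a scavenger receptor gene, by 0.72 ± 0.26, both with overlapping arrays. The list level was 8.05, 8.29 and 8.04 at CT12, against 7.86, 7.26 and 8.01 at CT0, so that the low array was again replicate 2 at CT0, and without it the median was 0.23, and Clec10a and Cd163 differed by 0.42 and 0.27. Adipocyte markers followed that array as well: the median was 0.20, and -0.01 without it. All 25 respiratory chain and ATP synthase genes were positive, with a median of 0.13, and 0.04 without that array. Cox7b, a subunit of cytochrome c oxidase, had the smallest p of that list (0.28 ± 0.08, adjusted p = 0.203). The part of that array in these lists beyond these values was not tested.

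**Figure D4:**
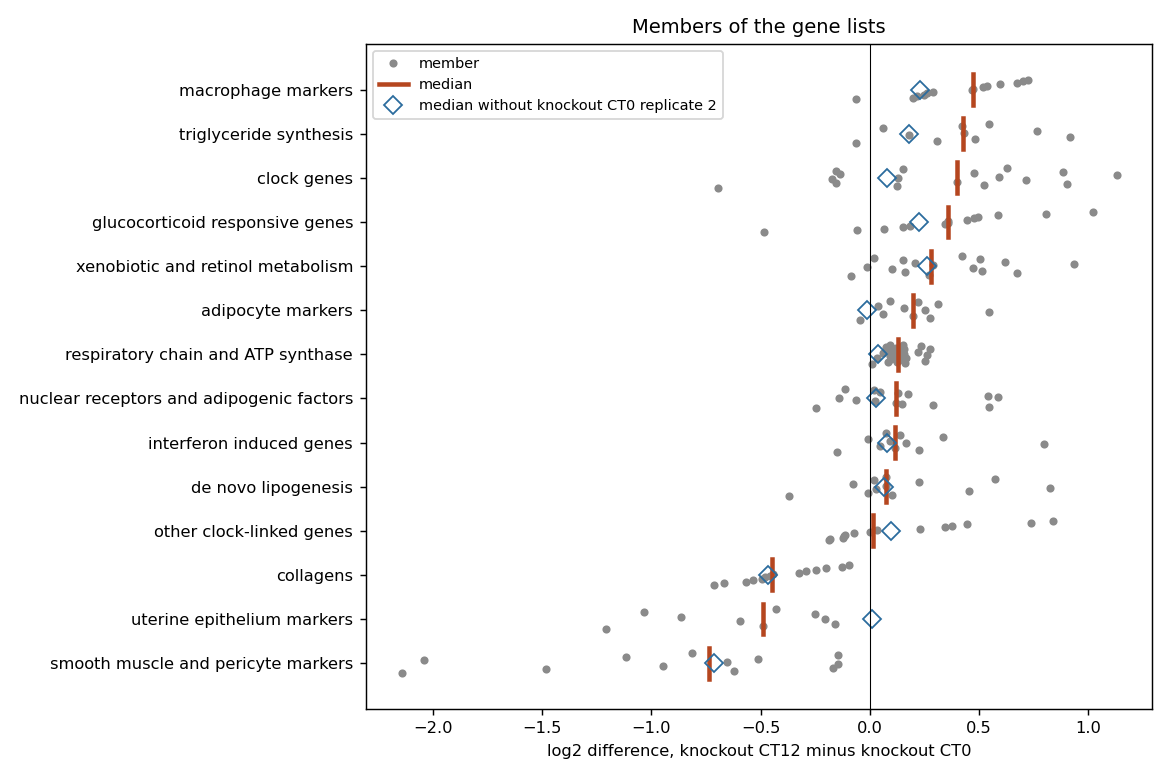
Log2 differences (CT12 minus CT0, knockout fat) of the members of 14 gene lists. Grey points are genes, bars are medians over 6 arrays and diamonds are medians without replicate 2 at CT0. Smooth muscle markers (-0.73 and -0.71) and collagens (-0.45 and -0.46) kept their medians without that array, whereas those of uterine markers (-0.49 and 0.01) and adipocyte markers (0.20 and -0.01) moved to near 0.

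The same pair of times was set against control fat, whose 6 arrays are separate from the knockout arrays. Of the 19 genes that passed in knockout fat, 17 had the same sign in control fat, against 56.3% of all genes, with a median control difference of 0.45. In control fat 8 genes passed (0.0401%), and 4 genes, Per3, Dbp, Hlf and Wsb1, passed in both genotypes, which is 4 of 19 in knockout fat and 4 of 8 in control fat. Per3 rose by 1.13 ± 0.16 in knockout and 1.33 ± 0.16 in control fat, Dbp by 0.90 ± 0.16 and 1.21 ± 0.16, and Hlf by 0.88 ± 0.15 and 0.99 ± 0.15. For each of these genes replicate 1 was the highest knockout array and the lowest control array at CT12. It read 8.19 and 7.90 for Per3, 7.68 and 7.60 for Dbp, and 8.17 and 7.96 for Hlf. Without replicate 1 at CT12 of both genotypes the changes therefore lie further apart than these values. Wsb1 differed by -0.45 ± 0.08 in knockout and -0.42 ± 0.08 in control fat. Asnsd1 (0.43 ± 0.08 and -0.06 ± 0.08) and Atp11a (-0.49 ± 0.09 and 0.06 ± 0.09) had opposite signs in the 2 genotypes.

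By limma 0 genes passed for the difference between genotypes in the change between CT12 and CT0, and 696 (3.49%) had an unadjusted p under 0.05. The change of no gene was therefore shown to differ between knockout and control fat. Named genes with the smallest p were Asnsd1 (0.49 ± 0.11, unadjusted p = 0.000294, adjusted p = 1 by limma), Atp11a (-0.55 ± 0.13, unadjusted p = 0.000325, adjusted p = 1 by limma) and Arntl. Asnsd1 read 8.91, 9.05 and 8.94 at CT12, against 8.46, 8.54 and 8.61 at CT0 in knockout fat, and averaged 8.77 and 8.82 in control fat. Clpp, a mitochondrial protease gene (0.45 ± 0.11), Acot13, an acyl-CoA thioesterase gene (0.54 ± 0.14), Lonrf3 (0.71 ± 0.18) and Ifi27l2a (0.83 ± 0.23) followed on the positive side. Adamts10, a matrix metalloprotease gene (-0.42 ± 0.11), Tnfrsf21, a death receptor gene (-0.57 ± 0.15), and the phosphatase gene Ptpru (-0.48 ± 0.13) followed on the negative side. For Ifi205 and Ifi207 it was 0.81 ± 0.30 and 0.81 ± 0.31.

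**Figure D5:**
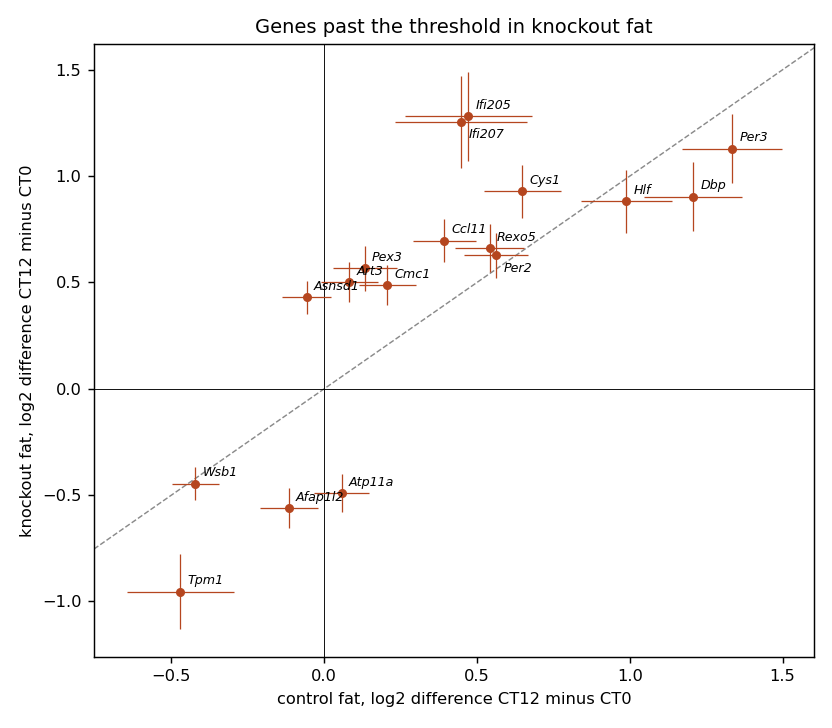
Log2 difference between CT12 and CT0 in knockout fat (vertical axis) against control fat (horizontal axis) for the 17 named genes that passed in knockout fat. Bars are standard errors and the dashed line marks equal change. Per3, Dbp and Hlf lie to the right, Ifi205 and Ifi207 above the line, and Asnsd1 and Atp11a on the far side of 0 in control fat.

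The other circadian times placed these changes within the day. At CT6 the knockout mean lay between those of CT12 and CT0 for 19 of the 19 genes that passed, against 38.0% of all genes. Ifi205 averaged 8.75 at CT0, 9.44 at CT6, 10.03 at CT12 and 9.44 at CT18, and Ccl11 averaged 10.30, 10.75, 10.99 and 10.52. Tpm1 averaged 10.04, 9.60, 9.09 and 9.45 at the same times. Of the 15 genes that rose, 14 had a lower mean at CT18 than at CT12, the exception being Art3 (10.73 at CT18 and 10.70 at CT12). The CT12 and CT0 means that chose the genes enter these counts, which are a description.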

How the data were processed

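The 24 samples are Affymetrix mouse gene arrays of inguinal fat, 50 ng of total RNA each, in 8 groups of 3 biological replicates. The deposited values are log2 expression made by the authors with RMA, per the submitters' processing notes, and the RMA version is not given in the sources used here. They were used without further normalization. The table holds 35556 probe sets: 21789 carry 1 gene symbol, 1621 carry several, and the remaining 12146 have no name here. A gene was represented by its probe set with the highest mean, which gave 19938 genes. Symbols were compared with RefSeq (GRCm38.p6) through Entrez numbers, 21698 matched and 0 changed.

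A model of the 8 groups was fitted over all 24 arrays with limma 3.58.1 (lmFit, eBayes) in R 4.3.3, with 16 residual and 5.03 prior degrees of freedom, and Benjamini-Hochberg adjustment over all genes at 0.05. Errors of differences are standard errors of that fit and those of means are SDs. Tables and figures were made in Python 3.11.15. Scripts were tested on simulated data. Precision is limited by the 3 arrays of each group.

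The text names all clock genes, genes past the threshold in order of size to a maximum of 12 in either direction, the 5 next smallest p where fewer than 5 passed, the 10 smallest p for the difference between genotypes (predicted genes and olfactory receptors are not named), and up to 4 members of a described list. Levels of different probe sets are not compared. Lists are described by counts and medians, with no test. Members and lists were chosen with earlier results of these data known. Alternatives were the arrays in the fit, a replicate block, normalization, a filter on dim genes, the probe set rule, the variance model, array weights and leaving out arrays.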

Additional observations from a re-analysis of the deposited data

Results flagged for a closer look

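In a fit of all 35556 probe sets, 5 probe sets outside the gene table passed for knockout CT12 minus CT0, against 0 for control CT12 minus CT0. All 5 were lower at CT12. Of these, 4 carry several gene symbols and identical values on the 6 knockout arrays, so that they count as 1 measurement: they read 7.18, 6.71 and 7.08 at CT12, against 7.82, 8.74 and 7.87 at CT0 (-1.16 ± 0.19, adjusted p = 0.0299 by limma). The remaining one, probe set 10584600, has no symbol here and read 7.31, 7.17 and 6.97 at CT12, against 8.41, 7.76 and 8.08 at CT0 (-0.93 ± 0.16, adjusted p = 0.0432).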

How the results depend on the processing

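The count of genes that passed for knockout CT12 minus CT0 was 19 (15 higher, 4 lower). It was 75 with array weights (38 higher, 37 lower), 3 without the 4 arrays toward the other genotype (3 higher, 0 lower) and 0 with the 6 knockout arrays alone (0 in either direction), where 1319 genes had an unadjusted p under 0.05. With all probe sets 9 probe sets were higher and 7 lower, which is not a count of genes. The 7 include the 5 probe sets outside the gene table, of which 4 count as 1 measurement. With genes above the median level 9 genes were lower. Leaving out 1 of the 6 arrays gave 0 to 63 genes, with 0 to 44 higher and 0 to 19 lower. The other alternatives (quantile normalization, centring, the mean of probe sets, trend and robust) kept these counts within 1.5 times. For the difference between genotypes the count was 0 in every alternative, including each array left out, except without the 4 arrays (1, Arntl). With the replicate number as a block 17 genes passed (12 higher, 5 lower) and 0 for the difference between genotypes. Nothing in the labels says that a number marks a shared litter, and same-numbered CT12 and CT0 arrays deviated from their group means with correlations of -0.0862, 0.0365 and 0.0998, so that no pairing was assumed. Directions turned for 6 genes that did not pass, among them Ltf (-0.86) and Bhlhe41 (0.59) without replicate 2 at CT0. Over the fits that leave out 1 of the 6 arrays, the differences ran between -0.002 and 0.192 for Rora, -0.248 and 0.0045 for Cry1, -0.301 and 0.0557 for Nfil3, -0.019 and 0.977 for Bhlhe41, -0.094 and 0.19 for Lonrf3, and -1.356 and 0.0085 for Ltf. Without the 4 arrays they were 0.0045 for Cry1, 0.0557 for Nfil3 and -0.0028 for Lonrf3. Control values without each control array were added after the data were seen. The causes were not tested.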

Other observations

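Slc20a1, a phosphate transporter gene chosen after its values were seen, read 7.24, 7.17 and 7.16 at CT12, against 8.10, 7.29 and 7.91 at CT0 in knockout fat. Its difference was -0.58 ± 0.13 and did not pass, and without replicate 2 at CT0 it was -0.82 with an adjusted p of 0.00041 by limma.

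Of 18 immediate early genes 0 passed, with a median of -0.04, and the medians were 0.03 for 14 heat shock genes, 0.02 for 15 genes of fatty acid oxidation and fasting and -0.02 for 16 genes of elongation and desaturation, with 0 passing in each. Cholesterol synthesis and insulin signalling both had a median of 0.11 (0.03 for both without replicate 2 at CT0), and 0 genes passed in either. In the cholesterol list Fdft1, the gene of squalene synthase, read 8.48, 8.14 and 8.02 at CT12, against 7.21, 7.36 and 7.31 at CT0 (0.92, adjusted p = 0.0859 by limma). T cell markers had a median of -0.08 and B cell markers -0.15, the second -0.56 without replicate 2 at CT0. The mean level of the B cell list per array lay between 5.98 and 6.41 at CT12 and between 5.78 and 7.001 at CT0. Endothelial markers had a median of -0.10, and -0.28 without that array, against 0.14 in control fat.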
